A study of Caenorhabditis elegans with 8 samples.

Results

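Double-stranded RNA (dsRNA) of whole young adult *C. elegans* was compared with that of embryos. The comparison rests on 2 of the 8 samples of the series, young adult dsRIP and embryo dsRIP, and on all 1541 editing-enriched regions (EERs) of the deposited table, with its 25509 gene rows beside them. dsRIP is RNA pulled down with the J2 antibody, which binds dsRNA irrespective of sequence. The young adults were Bristol N2, the wild-type strain, synchronised with hypochlorite, hatched overnight in M9 buffer without food at 20 °C and then grown in S-Complete liquid medium for 50 to 54 h. The embryos were mixed-stage eggs of the same strain, freed from well-fed mixed populations by hypochlorite and collected after washing. Both samples are whole animals or eggs of every tissue and carry no mutation or transgene in the labels. An adult hermaphrodite carries a germline and can hold fertilised eggs, and the labels do not say whether eggs were removed. Total RNA of both stages was sequenced too and serves as a comparison, as do dsRIP samples of L1-L2 and L3-L4 larvae for the course between the stages.

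ADAR enzymes (adenosine deaminases acting on RNA) turn adenosine into inosine inside dsRNA, and inosine is read as guanosine, so a cluster of A-to-G differences in sequenced RNA marks a stretch that was double-stranded in the animal. An EER is such a stretch. In *C. elegans* many lie in introns and untranslated ends of protein-coding genes, where inverted repeats fold back into hairpins. The worm has the ADAR proteins ADR-1 and ADR-2, of which ADR-2 carries out the deamination, and edited dsRNA is kept from entering the RNA interference pathway. The EERs were defined by the study on these same samples, pooled over stages and molecules, and separate lists exist per stage. A direction that EERs take as a group is therefore not independent of how the list was made.

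The table gives 3 numbered columns for each sample in FPKM, reads scaled to the length of the feature and to the depth of the column. GEO lists a single sample for each stage and kind of RNA, and whether the columns were separate cultures is not given, so their spread is that of repeat measurements and n is 1 sample per stage. No test stands behind the calls below, and p-values over columns, which measure only the spread of those columns, enter as an alternative in the closing section. A feature is called higher or lower in young adults where log2(mean FPKM + 1) differed by at least 2, which is 4-fold, and all 3 columns of 1 stage lay above all 3 of the other. Features were compared where they had at least 30 reads summed over the 6 columns. Differences below are of log2(mean FPKM + 1), young adult minus embryo, which understates low features. Ratios with an interval and bounds given as "at least" come from summed reads, scaled to depth.

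The young adult columns held 358513, 466429 and 436897 reads, and the embryo columns 430822, 432152 and 348064. The 7 adult marker genes, the vitellogenins and *col-19*, summed to 5242, 8321 and 3777 FPKM in the young adult columns and to 2.73, 7.43 and 4.5 FPKM in the embryo columns. The 9 zygotic markers of embryos summed to 5.13, 17.2 and 7.57 FPKM in young adults, where *end-1*, *med-1*, *med-2*, *tbx-37* and *tbx-38* were at 0, and to 196, 178 and 201 FPKM in embryos, where *med-2* alone was at 0. Young adult column 2 stood apart. It differed from columns 1 and 3 by 10.3 and 12.7 times counting noise (chi-square per degree of freedom), whereas columns 1 and 3 differed from each other by 1.58 times, less than any embryo pair (7.0 to 8.93). Values without column 2 are given for the EER share, the calls over all EERs and genes and the host pairs, and elsewhere for the lists and chromosomes whose counts or medians moved most. In RNA from whole animals, fewer cells of a type and less RNA per cell cannot be told apart.

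EERs took a smaller share of dsRIP reads in young adults than in embryos. They held 1.48%, 0.824% and 1.25% of the reads of the young adult columns, against 2.70%, 2.67% and 2.69% of those of the embryo columns. The columns of the stages did not overlap, and the young adult mean of 1.19% was 0.441 times the embryo mean of 2.69%, or 0.508 times without young adult column 2. In total RNA the shares were 0.597%, 0.438% and 0.687% in young adults and 1.19%, 0.946% and 1.12% in embryos, a ratio of 0.529. Fewer EERs were seen as well: 901, 773 and 909 had a read in the young adult columns, against 1230, 1187 and 1213 in the embryo columns. The reads were more concentrated in young adults, where the 10 most abundant EERs took 24.2%, 23.4% and 24.1% of EER reads, against at most 18.2% in any embryo column.

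**Figure D1:**
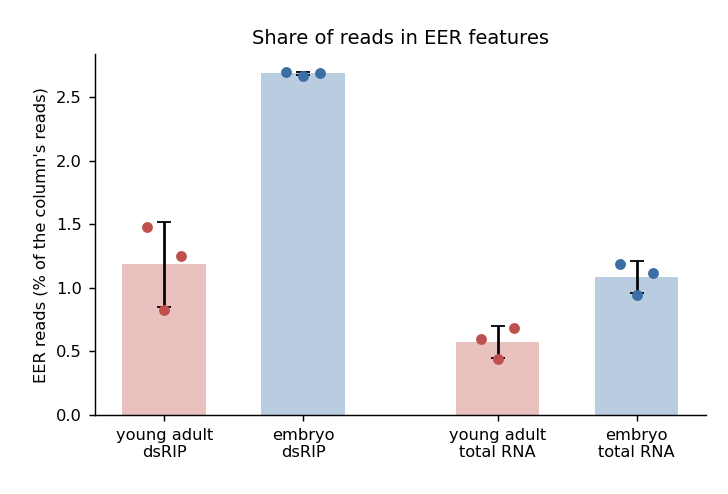
Share of reads in EER features in each numbered column (points), as % of the column's reads, with the mean (bar) and SD of 3 columns (error bar). Young adult dsRIP lay between 0.824% and 1.48%, below all 3 embryo dsRIP columns at 2.67% to 2.70%, and total RNA showed the same order at lower shares.

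Of the 1541 EERs, 301 (19.5%) had at least 30 reads over the 6 columns, 1191 had 1 to 29 reads and 49 had none. The EERs under 30 reads together held 2993 young adult reads and 8539 embryo reads. There were 243 EERs with a read in embryos and none in young adults, and 52 with the reverse. Among the 301, the median had 65 reads, so a single EER is measured coarsely, while the median of 8359 compared genes had 113 reads.

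Of the 301 EERs, 4 were called higher in young adults (1.33%) and 92 lower (30.6%). Genes were called in both directions, with 858 of 8359 higher (10.3%) and 13.7% lower. The median log2 difference was -1.47 for EERs and -0.19 for genes, and 258 of the 301 EERs lay below 0. At any fold, all 3 young adult columns lay above all 3 embryo columns for 8 EERs (2.66%, against 25.6% of genes), below them for 203 (67.4%, against 35.1% of genes), and the stages overlapped for 90 (29.9%, against 39.2% of genes). EERs and gene lists are to be read against the gene median of -0.19, which was not even over the genome (-1.04 on X and 0.03 on IV). With the gene medians set equal the EERs called were 6 higher and 77 lower. Without young adult column 2 the EERs called were 6 higher and 76 lower, with a median of -1.31, and the genes 852 higher and 1198 lower, with a median of -0.21. The share called lower was alike at both depths, with 62 of 203 EERs of 30 to 99 reads and 30 of 98 EERs of 100 reads or more. Just outside the threshold lay EA6_EER682+ at -1.98 and EA6_EER33- at -1.99, and just inside it EA6_EER1057+ at -2.02 and EA6_EER1294- at -2.02.

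**Figure D2:**
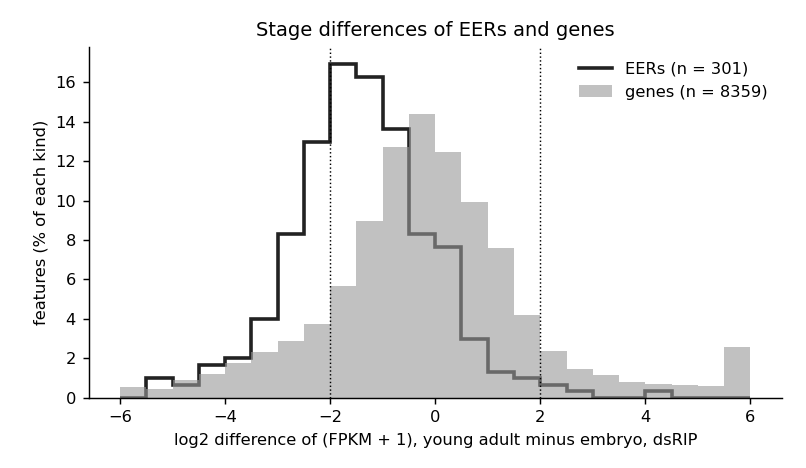
Share of the 301 EERs (line) and the 8359 genes (filled) in bins of log2 difference of (FPKM + 1), young adult minus embryo, with values beyond the axis gathered in the end bins and dotted lines at 4-fold. The EERs centre on -1.47 and the genes on -0.19.

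The chromosome arms of *C. elegans* autosomes are rich in repeats, and EERs lie mostly on autosomes. EERs called lower made up 26 of 95 on chromosome I, 16 of 39 on II, 23 of 78 on III, 13 of 43 on IV and 14 of 44 on V. The medians by autosome ran from -1.52 on II and IV to -1.11 on V, where 3 of the 4 higher EERs lay. Without young adult column 2, EERs called lower were 19 on I, 16 on II, 21 on III, 9 on IV and 11 on V, and 1 on I was higher. Only 2 EERs on X had 30 reads, and neither was called, although X genes had a median of -1.04 and 281 of 1058 were called lower (26.6%). Among the genes of the autosomes the medians ran from -0.20 to 0.03. EERs inside or touching a gene and those in no gene span gave close shares, with 73 of 239 and 19 of 62 called lower and medians of -1.47 and -1.33.

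The stage lists of the study divide the EERs as their making would. The 154 EERs in the embryo list but not in the young adult list had a median of -1.85, and 68 were called lower. The 96 in both lists had a median of -0.79, with 18 lower and 2 higher. The 4 in the young adult list alone had a median of 1.22 and none was called, and the 47 in neither list had -0.88, with 6 lower and 2 higher. List membership was set from these samples, so these counts are a description.

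Each of the 4 higher EERs was above 0 in total RNA too. EA6_EER1446- (chromosome V, 18555435 to 18556203, on the strand of and within *ttr-24*, a member of the transthyretin-like family) had 39.9, 50.2 and 71.4 FPKM in the young adult columns, against 6.04, 0 and 0 FPKM in the embryo columns. These are 53 young adult reads against 2 embryo reads, a ratio of 25.4 (95% exact interval 6.7 to 215). The lowest young adult column exceeded the highest embryo column more than 6 times. EA6_EER1395- (chromosome V, 13135017 to 13135901, within *clec-41*, a C-type lectin gene whose transcript is a known ADAR substrate) had 123, 82.4 and 106 FPKM in the young adult columns, against 7.87, 18.3 and 13 FPKM in the embryo columns, a log2 difference of 2.90 in dsRIP and 2.48 in total RNA. This EER was already at 121 FPKM in L1-L2 and 131 FPKM in L3-L4 dsRIP, so the embryo was the low stage. EA6_EER805- (chromosome III, 11171576 to 11171812, in no gene span) had 129, 90.5 and 145 FPKM in the young adult columns, against 9.79, 29.3 and 36.4 FPKM in the embryo columns, and differed by 2.23 in dsRIP and 2.72 in total RNA. EA6_EER1343- (chromosome V, 4517313 to 4517509, touching T28F12.1) had 326, 348 and 279 FPKM in the young adult columns, against 58.9, 58.7 and 87.5 FPKM in the embryo columns. Its difference was 2.2 in dsRIP and 0.47 in total RNA.

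The 92 lower EERs ran from -5.42 to -2.02, with a median of 7 young adult reads and 54 embryo reads, and all 92 lay below 0 in total RNA as well. The 10 furthest apart had at most 3 young adult reads each, so their size is known only within wide counting limits. EA6_EER1140+ (chromosome IV, 6891110 to 6891399, within T05A12.4) had 0, 0 and 7.89 FPKM in the young adult columns, against 232, 152 and 79.3 FPKM in the embryo columns, with 1 read against 56 and a ratio of 0.0171 (95% exact interval 0.000426 to 0.0995). T05A12.4 itself differed by -1.06 only, while EA6_EER1470- (chromosome V, 19615283 to 19616102) lay within Y43F8C.3, which was called lower too. EA6_EER1470- had 3.4, 0 and 0 FPKM in the young adult columns, against 76.4, 121 and 31.5 FPKM in the embryo columns, a ratio of 0.0121 (95% exact interval 0.000304 to 0.0697). EA6_EER1264+ (chromosome V, 966568 to 967547, in no gene span) had 0, 0 and 0 FPKM in the young adult columns, against 42.6, 30.7 and 20.5 FPKM in the embryo columns. With 0 reads against 38, it was at least 13.2-fold lower in young adults, taking 3 reads over the group as the floor.

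The others of these 10 include EERs in genes of known function. EA6_EER653- (chromosome III, 347574 to 347657) lies within *gei-4*, which encodes a protein that binds the Rac-pathway component GEX-3. It had 0, 25.5 and 27.2 FPKM in the young adult columns, against 414, 468 and 376 FPKM in the embryo columns, a ratio of 0.0446 (95% exact interval 0.00524 to 0.171). EA6_EER566- (chromosome II, 12790072 to 12790627) lies within *cpt-1*, a carnitine palmitoyltransferase gene of fatty acid oxidation. It had 5.02, 0 and 0 FPKM in the young adult columns, against 45.9, 49.9 and 36.2 FPKM in the embryo columns, a ratio of 0.032 (95% exact interval 0.000784 to 0.192). In both, every embryo column lay above every young adult column. EA6_EER1136- in M03D4.4, EA6_EER344+ in C35E7.5 and EA6_EER407- in W04A8.4 had 1, 3 and 2 young adult reads against 49, 81 and 41 embryo reads. EA6_EER1183-, which spans parts of Y62E10A.20 and *rab-19*, a small GTPase gene, and EA6_EER462- in no gene had 1 read each against 36 and 34.

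**Figure D3:**
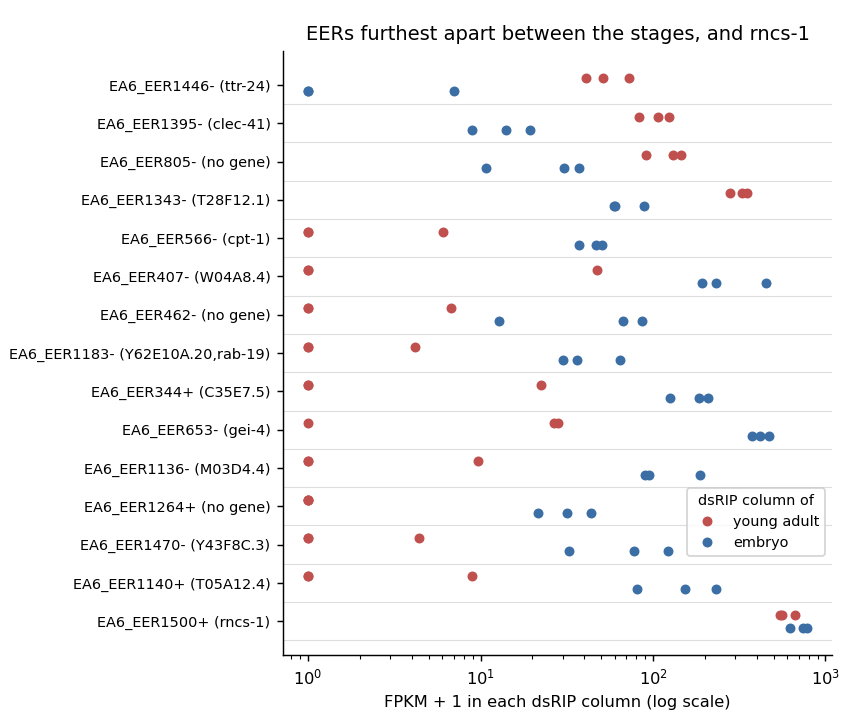
FPKM + 1 on a log scale in each of the 3 young adult and 3 embryo dsRIP columns (points) for the 4 higher EERs, the 10 lower EERs furthest apart and the EER of *rncs-1*, each with the gene it lies in. The stages do not overlap in the first 14 and overlap in *rncs-1*, at 547 to 662 FPKM in young adults and 620 to 784 FPKM in embryos.

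Where reads were more numerous, the lower EERs gave firmer values. EA6_EER204+ (chromosome I, 2295465 to 2297032, within Y39G10AR.11) had 42.7, 19.1 and 42.3 FPKM in the young adult columns, against 224, 217 and 295 FPKM in the embryo columns, from 67 and 459 reads, a ratio of 0.14 (95% exact interval 0.107 to 0.181). EA6_EER124+ (chromosome I, 1568675 to 1573364) lies within *src-1*, which encodes the Src tyrosine kinase of the worm. It had 9.52, 7.31 and 7.32 FPKM in the young adult columns, against 69.3, 56.7 and 54.5 FPKM in the embryo columns, a ratio of 0.131 (95% exact interval 0.0945 to 0.178). EA6_EER1271+ (chromosome V, 991403 to 992863) lies within *unc-34*, the gene of the actin regulator Enabled. It had 13.4, 5.87 and 11 FPKM in the young adult columns, against 71.5, 60.2 and 100.3 FPKM in the embryo columns, a ratio of 0.129 (95% exact interval 0.0741 to 0.212). EA6_EER310- (chromosome I, 4533096 to 4533523) lies within *bet-1*, a bromodomain gene that keeps cell fates stable. It had 26.1, 0 and 48.1 FPKM in the young adult columns, against 163, 238 and 234.9 FPKM in the embryo columns, a ratio of 0.114 (95% exact interval 0.0591 to 0.204). In each of these 4 EERs the lowest embryo column exceeded the highest young adult column more than 3 times.

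Both stage lists hold 18 of the 92 lower EERs and 2 of the 4 higher ones, so the study found editing clusters there at both stages. The lower ones included EA6_EER884- and EA6_EER885- in *epc-1*, the homologue of Enhancer of Polycomb, at -3.19 and -2.62. EA6_EER1059+ in *hrpu-2*, a gene of the hnRNP U family, was at -2.1, EA6_EER1084- in *egrh-3*, a gene of the EGR zinc finger family, at -2.02 and EA6_EER852- in *tim-1*, a timeless homologue, at -2.02. EA6_EER343+ (chromosome I, 10819145 to 10820522) in no gene span, among the more abundant, had 93.1, 34.2 and 51.5 FPKM in the young adult columns, against 236, 227 and 321 FPKM in the embryo columns. EA6_EER1325- (chromosome V, 3749517 to 3750143), also in no gene span, had 80.1, 47.9 and 91.3 FPKM in the young adult columns, against 270.2, 450.2 and 454 FPKM in the embryo columns. In both, every young adult column lay below every embryo column.

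The EERs with the highest levels mostly did not differ 4-fold. EA6_EER375+ (chromosome I, 12748760 to 12749150, in no gene span), first in young adults, had 870.3, 351 and 679 FPKM in the young adult columns, against 487, 710.2 and 757 FPKM in the embryo columns, and its columns overlapped. EA6_EER1500+ (chromosome X, 1011445 to 1012208) belongs to *rncs-1*, a long hairpin RNA that binds Dicer without being processed. It had 562, 547 and 662 FPKM in the young adult columns, against 784, 739 and 620.5 FPKM in the embryo columns, a difference of -0.27. EA6_EER53- (chromosome I, 1154606 to 1155338, in no gene span) differed by -0.37 and EA6_EER870+ (chromosome III, 12466055 to 12466288, in no gene span) by 0.58, both with overlapping columns. EA6_EER851- (chromosome III, 12223929 to 12224510), first in embryos, had 407, 247 and 389 FPKM in the young adult columns, against 997, 1153 and 815 FPKM in the embryo columns, a difference of -1.50. It touches *gphr-1*, a Golgi pH regulator homologue on the other strand. EA6_EER1076+ (chromosome IV, 2503047 to 2503451, in no gene span) had 262, 111 and 220.4 FPKM in the young adult columns, against 1284, 674 and 248 FPKM in the embryo columns, where embryo column 3 lay within the young adult range.

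The stage difference in dsRIP was set beside that in total RNA, which was not pulled down. In total RNA the same 301 EERs had a median of -1.10, with 5 called higher (1.66%) and 61 lower (20.3%), and genes had 844 higher (10.1%) and 1113 lower (13.3%) with a median of -0.23. Of the lower EERs, 50 were called in both, which is 54.3% of the dsRIP calls and 82.0% of the total RNA calls. The log2 differences correlated at r = 0.84 over the 301 EERs, a description only, since both kinds of RNA come from the same stages and features. The dsRIP difference lay below that in total RNA for 201 of 301 EERs, with a median gap of -0.28, against 4171 of 8359 genes and a median gap of 0.00. Young adult dsRIP column 2 enters this gap, which was not computed without it. Without that column the dsRIP median of the EERs was -1.31, nearer to the -1.10 of total RNA. Among the 92 lower EERs it lay below for 74, though these were chosen on the dsRIP value.

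Single EERs departed from this in both directions. Those listed here had at least 100 reads. EA6_EER1500+ of *rncs-1* was close between the stages in dsRIP at -0.27, whereas in total RNA it had 837, 221 and 394 FPKM in young adults and 249, 204 and 172 FPKM in embryos, a difference of 1.21. EA6_EER1433- (chromosome V, 17972241 to 17976067), in *snx-6*, a sorting nexin gene, was at -1.54 in dsRIP and 0.09 in total RNA. EA6_EER607+, in no gene span, and EA6_EER1309-, in the nuclear receptor gene *nhr-86*, were called lower in dsRIP at -3.92 and -2.48, with -2.62 and -1.19 in total RNA. In the other direction, EA6_EER463- in *fbxb-40*, an F-box gene, was at -3.29 in dsRIP and -4.35 in total RNA. EA6_EER712+, in no gene span, was at 0.46 and -0.55, with overlapping dsRIP columns. In total RNA the columns of the stages overlapped for EA6_EER1500+, EA6_EER1433-, EA6_EER1309- and EA6_EER712+. No EER had non-overlapping columns of opposite direction in dsRIP and total RNA.

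Most compared EERs lay in a gene that could be measured too. There were 251 pairs of 236 EERs and 214 genes with at least 30 reads each, 232 of them on the same strand. Whether a read in an EER was also counted for its gene is not stated, so the values of a pair are not independent. The EER lay below its gene in 188 of 251 pairs, with a median gap of -0.48 (182 pairs and -0.32 without young adult column 2), and in total RNA in 175 pairs, with a median gap of -0.30. The genes themselves leaned towards embryos, with 170 of 214 below 0, against 4642 of all 8359 compared genes. Of 76 pairs with a lower EER, the gene was called lower in 21, was not called in 54 and was called higher in 1, and the median of the genes was -1.47. Among all compared genes, 13.7% were called lower and 10.3% higher. The EER with the higher gene was EA6_EER1472+ (chromosome V, 19911576 to 19912780), which lies on the other strand of *chk-2*, a kinase gene that starts meiotic chromosome pairing. *chk-2* had 35.5 ± 11.6 FPKM in young adult dsRIP and 6.77 ± 3.72 FPKM in embryo dsRIP (mean ± SD of 3 columns), and the EER had 4.63, 1.78 and 3.8 FPKM in the young adult columns, against 21.2, 13.4 and 31 FPKM in the embryo columns. Whether counting used strand is not stated, and reads of the strands cannot be told apart here.

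Both were called higher for *clec-41*, which had 146 ± 17.5 FPKM in young adult dsRIP and 15.9 ± 0.616 FPKM in embryo dsRIP, and for *ttr-24*, which had 93.8 ± 15.6 FPKM in young adult dsRIP and 9.48 ± 5.71 FPKM in embryo dsRIP. The gene differed by 3.13 and its EER by 2.90 for *clec-41*, and by 3.18 and 4.19 for *ttr-24*. Among the lower pairs *ergo-1*, an Argonaute of small RNAs made in oocytes and embryos, is itself a factor of RNA interference. It had 35.8, 41 and 22.5 FPKM in the young adult columns, against 134, 184 and 139.6 FPKM in the embryo columns, a difference of -2.17, and its EER, EA6_EER1274+, differed by -2.89. In *lin-40*, a subunit gene of the NuRD chromatin complex, the gene row at -2.88 lay below EA6_EER1324+ at -2.11. *ergo-1* and *lin-40* were picked from the lower pairs after their values were seen.

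**Figure D4:**
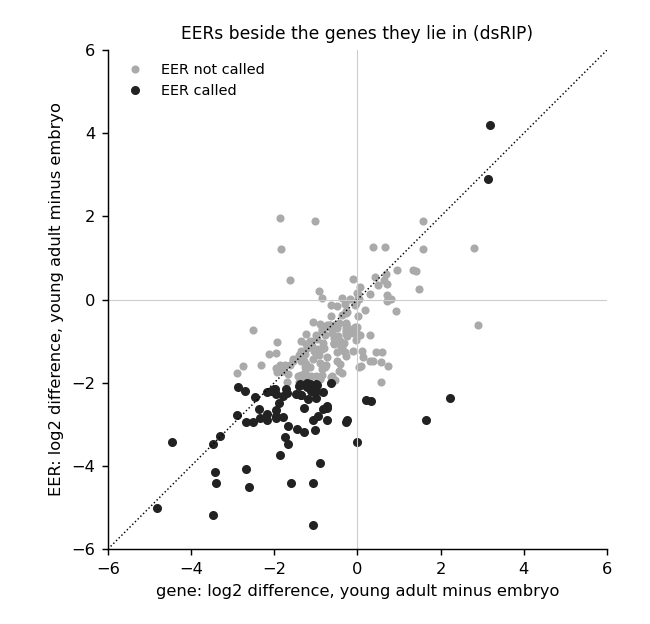
Log2 difference of (FPKM + 1), young adult minus embryo, of an EER (vertical axis) against that of the gene it overlaps (horizontal axis) for 251 pairs, with called EERs in black and the dotted line where both are equal. Most points, 188 of 251, lie below the line.

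Genes with several EERs show how regions of 1 transcript compare. The 3 EERs of Y111B2A.12 were all called lower, at -2.90 to -2.55, while the gene row was at -0.74. In *ssl-1*, a chromatin remodeller gene of the SWI/SNF-like family, 3 of 5 EERs were called, and the 5 ran from -2.37 to -1.31, all below the gene at -1.0. *unc-34* had 2 of 3 called (-2.82 to -1.71, gene -1.79), *epc-1* 2 of 3 (-3.19 to -1.49, gene -1.29) and *hrpu-2* 2 of 3 (-2.1 to -1.17, gene -1.21). In *pqn-41*, a gene of a glutamine-rich protein, 1 of 3 was called. *herc-1*, a HECT-type ubiquitin ligase gene, was the flattest of the 7 genes with at least 3 compared EERs, at -0.79 to -0.32 with none called. Of all 301 compared EERs, 30.6% were called lower, and counts out of 3 or 5 are too small to be told apart from that share. EERs of 1 gene share a transcript and are not replicates.

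Across the 4 stages the lower EERs had lower medians at each later stage. Their median level was 49.5 FPKM in embryos, 17.1 in L1-L2, 9.90 in L3-L4 and 7.10 in young adults. The first interval held the largest step, and 87 of 92 were lower in L1-L2 than in embryos, 79 lower in L3-L4 than in L1-L2 and 75 lower in young adults than in L3-L4. The 4 higher EERs had medians of 19.1, 101, 91.2 and 113 FPKM in the same order, so they were above the embryo level from L1-L2 on. The 205 EERs that were not called had 32.9, 19.2, 15.6 and 16 FPKM. Of these 205, 151 were lower in L1-L2 than in embryos. The larval samples were not used to call an EER, but embryo and young adult values were, so the choice can enlarge the steps from the embryo and to the young adult.

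The editing enzymes and the RNA interference machinery were read from the gene rows of the same columns. *adr-2* (T20H4.4), the active deaminase, had 23, 26.5 and 20.2 FPKM in the young adult columns, against 45.1, 32.7 and 45.7 FPKM in the embryo columns, a difference of -0.80. *adr-1*, its regulator, had 35.6, 21.4 and 21.4 FPKM in the young adult columns, against 59.3, 80.0 and 62.7 FPKM in the embryo columns, a difference of -1.33. Neither reached 4-fold. In each gene all young adult columns lay below all embryo columns, which was so for 35.1% of all genes. Of 29 genes for dsRNA binding and RNA interference, 27 were compared, 2 were called higher and none lower, fewer than the 10.3% and 13.7% of all genes, and their median was 0.10. The 2 were *ego-1*, a germline RNA-dependent RNA polymerase, at 3.09, and *mut-14*, a helicase gene of the germline Mutator foci, at 2.57. The Dicer gene *dcr-1* was at 0.10, the dsRNA-binding partner *rde-4* at -0.53 and the polymerase gene *rrf-3* at 0.96.

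Argonautes, the proteins that carry small RNAs, split by direction. Of 17 listed, 15 were compared, 6 were called higher and 4 lower, against 10.3% and 13.7% of all genes. In 1 of the 15 the embryo had 0 reads, so this gene passed the filter through young adult reads alone and could not be called lower. *csr-1*, the Argonaute of germline-expressed genes, had 181, 133 and 215 FPKM in the young adult columns, against 19.6, 10.4 and 12.9 FPKM in the embryo columns. *hrde-1*, of nuclear inheritance in the germline, had 117, 155 and 121 FPKM in the young adult columns, against 12.5, 24.8 and 21.1 FPKM in the embryo columns. *prg-1*, the piRNA-binding Piwi protein gene, was at 2.09, *wago-4* at 2.78, *ppw-2* at 3.12 and the spermatogenesis gene *alg-3* at 3.21. The 4 lower were *ergo-1*, the microRNA Argonautes *alg-1* at -2.33 and *alg-2* at -3.25, and *nrde-3*, of nuclear silencing in somatic cells, at -3.65.

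Of 8 known ADAR substrates, 7 had 30 reads, 1 was called higher and 1 lower, with a median of -0.74. Counts this small are near the shares of all genes, 10.3% higher and 13.7% lower. *clec-41* was the higher. *pop-1*, the TCF factor of the Wnt asymmetry pathway, had 16.9, 21.2 and 10.4 FPKM in the young adult columns, against 75.8, 104 and 109 FPKM in the embryo columns, a difference of -2.50. *lam-2*, a laminin subunit gene, *alh-7*, an aldehyde dehydrogenase gene, and *daf-2*, the insulin receptor gene, were at -1.37, -0.74 and -0.78. Each had all young adult columns below all embryo columns, as did 35.1% of all genes. *unc-64*, the syntaxin gene, was at -0.63 and *rncs-1* at -0.27, with overlapping columns. M05B5.3 had 4 young adult reads and 1 embryo read and was left out.

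The largest differences among genes were those of adult products. Yolk proteins are made in the adult intestine and taken up by oocytes. All 6 vitellogenin genes were called higher, with a median of 8.58, although reads of the near-identical *vit-3*, *vit-4* and *vit-5* may be split among them. The family held 2.28%, 3.57% and 1.57% of the reads of the young adult columns, against 0.000232%, 0.0037% and 0.0023% of those of the embryo columns. *vit-2* (C42D8.2, chromosome X, 5101001 to 5106142) had 1039.5, 2122 and 749 FPKM in the young adult columns, against 0, 0.935 and 0.581 FPKM in the embryo columns, where young adult column 2 was the highest. *vit-6* had 1238, 2841 and 873 FPKM in the young adult columns, against 0, 3.64 and 1.13 FPKM in the embryo columns. Of 16 genes for oocytes and the eggshell, all were compared and 12 were called higher, against 10.3% of all genes, with none lower and a median of 2.88. *perm-2*, of the permeability barrier, had 707, 478 and 539 FPKM in the young adult columns, against 3.20, 0 and 0 FPKM in the embryo columns. *cpg-2*, an eggshell chondroitin proteoglycan gene, had 404, 642 and 368 FPKM in the young adult columns, against 22.8, 13.4 and 34.9 FPKM in the embryo columns, and *rme-2*, the yolk receptor gene, was at 4.17. *mbk-2*, the kinase that drives the oocyte-to-embryo transition, pointed the other way at -1.72, without being called.

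Major sperm protein genes with enough reads were called higher, and germline lists in part, where 10.3% of all genes were higher and 13.7% lower. Of 31 major sperm protein genes, 25 had 30 reads and all 25 were called higher, while 30 had any read and all 30 lay above 0. In 19 of the 25 the embryo had 0 reads, so these passed the filter through young adult reads alone and could not be called lower. The median of 6.92 depends on the added 1 FPKM, and with these 19 at their bound it was 5.21. *msp-33* had 412, 457 and 527 FPKM in the young adult columns, against 0, 0 and 0 FPKM in the embryo columns , and was at least 87-fold higher. Copies of this family are nearly identical, and reads may be split among them. Of 14 genes of meiotic chromosome pairing and synapsis, 6 were called higher and none lower (median 1.81, all 14 above 0), among them *him-3*, an axis protein gene, with 62.2, 57.4 and 55.1 FPKM in the young adult columns, against 6.21, 0 and 5.13 FPKM in the embryo columns. Of 10 P granule genes, which build the germ granules, 4 were higher, and 4 lay below 0. The 4 higher were *glh-1*, *glh-2*, *glh-4* and *pgl-3*. *glh-1*, a Vasa-type helicase gene, had 229.9, 195 and 199 FPKM in the young adult columns, against 4.53, 9.04 and 10.1 FPKM in the embryo columns, whereas the embryonic granule genes *meg-1* and *meg-2* were at -1.38 and -1.29 and were not called.

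Transcripts laid down by the mother were not far apart, where 10.3% of all genes were called higher and 13.7% lower. Of 14 maternal RNA-binding and polarity genes, 1 was called, *gld-1*, a translational repressor of the meiotic germline, with 149, 173 and 143 FPKM in the young adult columns, against 17.6, 28.9 and 44.9 FPKM in the embryo columns. *mex-5*, which sets up anterior identity, had 130, 134 and 124 FPKM in the young adult columns, against 92.2, 101 and 130 FPKM in the embryo columns. *pos-1*, a zinc finger regulator of early fate, had 115, 117 and 85.9 FPKM in the young adult columns, against 266, 299.8 and 277 FPKM in the embryo columns, a difference of -1.40, without overlap. The columns of *mex-5* overlapped. The median of the list was -0.31, with 10 of 14 genes below 0, and without young adult column 2 a further gene was called, as lower.

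Zygotic fate regulators and core histones were mostly called lower, and cell cycle genes in part, where 13.7% of all genes were lower and 10.3% higher. Of 37 zygotic fate regulators, 18 had 30 reads, 13 of those were called lower and none higher. Among the 36 with any read, all 36 lay below 0. *hlh-2*, an E-protein gene, had 5.92, 2.27 and 3.64 FPKM in the young adult columns, against 73.9, 56.5 and 85.4 FPKM in the embryo columns. *pha-4*, the pharynx selector gene, was at -3.23, *hlh-1*, the muscle selector, at -4.16 and *elt-1*, of epidermal fate, at -2.95. Of 22 cell cycle genes, 7 were called lower and none higher, and 4 lay above 0. *cyb-3*, a mitotic cyclin gene, had 195, 189.7 and 176 FPKM in the young adult columns, against 1221, 2039 and 1019 FPKM in the embryo columns, and *pcn-1*, the replication clamp PCNA, was at -2.27. Core histone genes held 0.785%, 0.568% and 0.623% of the reads of the young adult columns, against 5.2%, 10.1% and 4.69% of those of the embryo columns. Of 63 core histone genes, 31 had 30 reads and 26 were lower, with a median of -3.96, and of 56 with any read 51 lay below 0, although reads of near-identical copies may be split among them. *his-62* had 1719.8, 1631 and 1186 FPKM in the young adult columns, against 12249, 15647 and 9478 FPKM in the embryo columns.

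Cuticle genes, many of them near-identical copies that may share reads, differed in both directions. Over all genes, 10.3% were called higher and 13.7% lower. Of 151 numbered collagen genes, 85 had 30 reads, 57 were called higher and 8 lower, and of 132 with any read 91 lay above 0 and 41 below. The median of those compared was 5.3, or 4.39 with the 22 genes at 0 embryo reads set to their bound. These 22 passed the filter through young adult reads alone. *col-81* had 1031, 1933 and 1181 FPKM in the young adult columns, against 0, 0 and 0 FPKM in the embryo columns and was at least 594.1-fold higher, and *col-106* had 4823, 2748 and 5092 FPKM in the young adult columns, against 12.5, 5.00 and 12.4 FPKM in the embryo columns. *col-74* was the furthest in the other direction, with 0, 0 and 2.1 FPKM in the young adult columns, against 588, 688 and 499 FPKM in the embryo columns, a ratio of 0.00122 (95% exact interval 3.08e-05 to 0.0068). Furrow collagens, which form the annular furrows of the cuticle, were lower in all 4 compared genes of 6, and the other 2 lay above 0 on fewer than 30 reads. *dpy-7* had 2.37, 1.82 and 3.90 FPKM in the young adult columns, against 318, 299 and 298 FPKM in the embryo columns, and *dpy-2*, *dpy-3* and *dpy-10* were at -6.31, -6.06 and -6.20. Of 12 other collagens that shape the body, *dpy-17*, *sqt-3* and *dpy-14* were lower, *dpy-4* and *dpy-5* were higher and 7 had under 30 reads, so the median of the 5 compared was -5.18 while that of all 12 was 2.61. *dpy-4* and *dpy-5* had 0 embryo reads, so they passed the filter through young adult reads alone and could not be called lower. *dpy-17* had 12.4, 1.90 and 8.13 FPKM in the young adult columns, against 2154, 3705 and 2207 FPKM in the embryo columns. Of 19 moulting genes, 15 were compared, 8 were lower and 1 higher, and of all 19, 14 lay below 0. *noah-1*, an apical matrix gene, had 20.4, 8.38 and 12.5 FPKM in the young adult columns, against 503, 569 and 489 FPKM in the embryo columns, and the higher gene was *nas-37*, a protease gene of cuticle shedding, at 2.99.

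Among lists of differentiated tissues and of housekeeping genes, the intestine and the mitochondrial genome held the largest shares of calls. Over all genes, 10.3% were called higher and 13.7% lower. Of 14 intestinal genes, 12 were compared and 7 were higher, *cpr-1*, *cpr-4*, *cpr-5*, *cpr-6*, *asp-1*, *asp-3* and *spp-5*, which encode digestive proteases and a saposin-like peptide. Without young adult column 2, 5 of the 12 were higher and the median was 1.46, against 2.35. *spp-5* had 1449.9, 1088 and 1184 FPKM in the young adult columns, against 109, 63.0 and 128 FPKM in the embryo columns. Of 21 body wall muscle genes, 4 were higher, *tnt-2*, *unc-27*, *tni-3* and *unc-22*, and 2 lower, *tni-1* and *unc-97*. Without young adult column 2, which held 2.34% of its reads in these genes against 1.17% and 1.21% in columns 1 and 3, 2 were higher. None of 5 pharyngeal muscle genes was called, with a median of 1.10 that was 0.07 without young adult column 2, and of 12 compared neuronal genes 1 was, *unc-119*, at -2.90. Ribosomal proteins leaned upwards, with 75 of 78 above 0, a median of 1.38 and 6 of 77 compared called higher, which is below the 10.3% of all genes. They held 7.48%, 8.74% and 7.32% of the reads of the young adult columns, against 2.65%, 2.9% and 3.29% of those of the embryo columns. Genes of the mitochondrial genome were higher in 8 of 10 compared and held 8.68%, 2.54% and 10.3% of the reads of the young adult columns, against 1.73%, 1.19% and 1.97% of those of the embryo columns. Young adult column 2 was the lowest of its 3 here and still above every embryo column. MTCE.25 and MTCE.26, both called higher, overlap on the same strand. They may share reads, and the read shares of this list may count such reads for both.

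Of 15 compared chaperone genes, 2 were lower and none higher, where 13.7% and 10.3% of all genes were. These were the small heat shock genes *hsp-16.2* at -3.44 and *hsp-16.41* at -2.57. The developmental timing genes, which order larval stages, had 3 lower and 1 higher of 6 compared, against 13.7% and 10.3% of all genes. *hbl-1*, an early larval timer, had 2.57, 2.96 and 1.05 FPKM in the young adult columns, against 123, 157 and 145 FPKM in the embryo columns, *lin-14* was at -2.81 and *lin-42* at -2.87, and *lin-41* was higher at 3.13. Of 20 sperm function genes, 4 had 30 reads and 3 of these were higher, *gsp-3*, *gsp-4* and *spe-15*, and 19 of the 20 lay above 0. Without young adult column 2, 2 of the 4 were higher and their median was 2.63, against 3.26. *gsp-3* and *gsp-4* had 0 embryo reads, so they passed the filter through young adult reads alone. The 2 compared pathogen response genes, *skr-3* and *drh-1*, were at 0.68 and 0.24 and were not called.

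**Figure D5:**
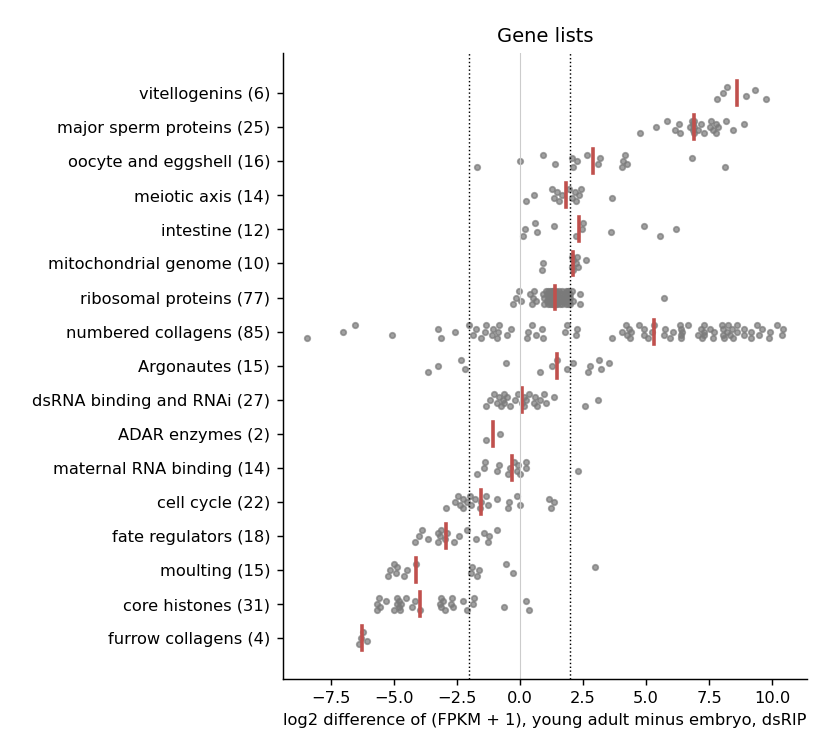
Log2 difference of (FPKM + 1), young adult minus embryo, in dsRIP for each compared gene (points) of 17 lists, with the list median (red bar), the number of compared genes in brackets and dotted lines at 4-fold. Medians run from 8.58 for the vitellogenins to -6.25 for the furrow collagens, and the ADAR enzymes and the RNA interference genes lie between the dotted lines, except *ego-1* and *mut-14*.

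For small non-coding RNAs, the medians of dsRIP and total RNA differed. The 19 compared small nuclear RNA genes, of the spliceosome, had a median of -1.90 in dsRIP and 0.26 in total RNA, and 3 were called lower, near the 13.7% of all genes, or 7 without young adult column 2. The 67 compared small nucleolar RNA genes, which guide rRNA modification, had 0.11 in dsRIP and 1.89 in total RNA, with 2 called lower, below that share, or 1 lower and 1 higher without young adult column 2. C17D12.8, a snoRNA gene called lower, had 1725, 426 and 1258 FPKM in the young adult columns, against 19685, 5688 and 3487 FPKM in the embryo columns. The embryo columns were uneven for these classes. Small nuclear RNAs held 0.118%, 0.12% and 0.117% of the reads of the young adult columns, against 0.743%, 0.205% and 0.315% of those of the embryo columns, so embryo column 1 was far above the others. The snoRNA median turned to -0.04 without young adult column 2, to -0.23 without embryo column 2, and to -0.24 with no read filter. The long non-coding RNA *lep-5*, a timing regulator of the late larva, had 761, 405 and 900.3 FPKM in the young adult columns, against 4.06, 4.04 and 0 FPKM in the embryo columns, with 23.4 FPKM in L1-L2 and 1202 FPKM in L3-L4 dsRIP. Of 34 other compared non-coding RNA genes 1 was higher and 8 were lower (2 and 9 without young adult column 2), and of 29 pseudogenes 7 were higher and 5 lower. In 1 of these pseudogenes the embryo had 0 reads, so it passed the filter through young adult reads alone. Over all genes, 10.3% were called higher and 13.7% lower. Of 9 compared piRNA genes 1 was lower, and neither the 1 compared tRNA gene nor any of the 4 rRNA genes was called. These few do not stand for their classes, since of 871 piRNA genes with any read 597 lay below 0 and of 75 tRNA genes 57 did, nearly all on fewer than 30 reads.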

How the data were processed

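Whole worms and embryos were profiled by RNA-seq of total RNA and of RNA pulled down with the J2 antibody, with a stranded kit, per the labels' protocols. The authors deposited FPKM values per feature in 3 numbered columns per sample, and per the submitters' processing notes Novoalign, SAMtools 0.1.19 and bedtools 2.19.0 were used, in the ce10 build. The lists of EERs were deposited by the authors as regions with a score whose meaning the files do not state, and the score was not used. How the 3 columns of a sample relate to cultures, how reads overlapping an EER and a gene were shared and whether strand was used in counting are not given in the sources used here.

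Reads were recovered from the FPKM steps, and 100% of 353858 values above 0 came within 0.05 of a whole read. Of these, 23103 were EER values. The lengths of EER rows are their coordinates, and the column totals were fitted to these rows. Those of gene rows were solved so that their values came within 0.05 of a whole read, so the gene rows are no check of the recovery. The columns of the 4 young adult and embryo samples held 348064 to 803642 reads. Intervals and floors of 3 reads cover counting error only, as PCR copies are not independent molecules. Features with at least 30 reads over the 6 dsRIP columns were compared by the difference of log2(mean FPKM + 1), with a call at 4-fold and non-overlapping columns. An overlap of 1 bp on either strand joined an EER to a gene. Symbols and gene classes were taken by name from the WBcel235 annotation, in which 24765 of 25509 gene names matched directly and 319 through RefSeq names, and EER coordinates are ce10, counted from 1.

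Named EERs are the 10 called furthest apart in each direction, the 5 most abundant at each stage, those called in the young adult list, and the 5 each way with the largest gap between dsRIP and total RNA. Named genes are their hosts, the 10 furthest apart each way, the 5 most abundant of each list and all vitellogenins, ADARs and known substrates, and other list members are named after their values were seen. The members and the 27 gene lists were chosen with earlier results of these data known. Alternatives covered the added value, filter, scaling, fold, averaging and each column left out, and limma 3.58.1 (R 4.3.3) over columns, with Benjamini-Hochberg adjustment. The steps were tested on simulated data. A planned motif search in promoters was not run, and sequences were not analysed here.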

Additional observations from a re-analysis of the deposited data

Results flagged for a closer look

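Young adult minus embryo differences of opposite direction in dsRIP and total RNA, with non-overlapping columns in both, were seen for 4 genes and for 0 EERs. The difference between the kinds of RNA was not tested in any of them. F39D8.7 differed by -2.32 in dsRIP, with 24.8, 0 and 30.5 FPKM in young adults and 175, 61.7 and 51.1 FPKM in embryos, and by 1.24 in total RNA, with 171, 93.7 and 164 FPKM in young adults and 73.9, 64.2 and 41.6 FPKM in embryos. Y54G9A.8 differed by -1.63 in dsRIP and 0.52 in total RNA, and its first embryo dsRIP column, at 1887 FPKM, stood far above the other embryo columns at 371 and 507 FPKM. *unc-96*, a muscle attachment gene, differed by 1.0 in dsRIP, with 18.2, 7.63 and 9.5 FPKM in young adults and 5.5, 5.49 and 5.11 FPKM in embryos, and by -0.93 in total RNA. *gtf-2H3*, a gene of the general transcription factor TFIIH, differed by 1.27 in dsRIP and -0.30 in total RNA.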

How the results depend on the processing

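The lean of EERs towards embryos kept its direction under every alternative run, with a median of -1.56 to -1.16, while the counts moved with the filter and fold. EERs higher in young adults numbered 12 with no filter and with a mean FPKM of at least 1, 1 with at least 100 reads and 7 at 2-fold. EERs lower numbered 378 with no filter and with a mean FPKM of at least 1, 30 with at least 100 reads, 178 at 2-fold and 59 with 5 FPKM added. Genes higher and lower numbered 1800 and 1898 with no filter and with a mean FPKM of at least 1, 374 and 573 with at least 100 reads, and 1717 and 2253 at 2-fold. The gene median was -0.01 with gene medians set equal and 0.09 with quantile normalisation, under which 6 EERs were higher and 66 lower. Leaving out each column in turn gave 3 to 7 EERs higher, the largest number without embryo column 3, 76 to 113 lower, 837 to 975 genes higher, 1130 to 1201 lower, an EER median of -1.56 to -1.31 and a gene median of -0.23 to -0.13. limma over columns, whose p-values measure the spread of columns only, called 8 EERs higher and 174 lower at an adjusted threshold of 0.05, of which 5 and 105 were also past 4-fold, and limma-voom, added after seeing the data, called 6 and 107 past 4-fold. With young adult columns 1 and 3 averaged into 1, also added after seeing the data, 4 EERs were higher and 101 lower. Under these alternatives no sign turned among the called EERs and genes that were named by rule. Genes named only as hosts, features named on other grounds and called features not named were not checked for this. Of the values of features named by rule, called or not, 75 moved by more than the spread of columns while 3499 did not. The cause of these shifts was not tested, beyond the fewer or more features that a filter or fold admits. List medians changed sign for neurons (0.11 under quantile normalisation), RNA interference genes (-0.04) and rRNA genes (0.12) without embryo column 2, pseudogenes (-0.04 at 100 reads), and with other filters for piRNA genes (0.51 to -5.24 with no filter, over 871 genes), lincRNA genes (3.24 to -0.01) and other shape collagens (-5.18 to 2.61). The median EER compared had 65 reads, which limits single values. No paired analysis was possible because each stage has 1 sample and the labels give no replicate numbers.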
